A study of Mus musculus with 6 samples.

Results

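The genes described here encode the proteins of the cytoplasmic ribosome, as measured in neural stem cells with and without the DNA methyltransferase Dnmt3a. They were taken by gene name: every gene probe named Rpl or Rps followed by a digit, without the Rps6k kinases, and for each gene the probe with the highest mean signal. This gave 78 genes, 46 of the large subunit (Rpl) and 32 of the small subunit (Rps), on 132 probes, out of 28786 gene names on the array. All 78 passed the filter on dim probes, as did 18058 genes in all. The name rule also took Rps19bp1, which binds Rps19 and is not itself a ribosomal protein, and the paralogs Rpl3l, Rpl7l1, Rpl22l1, Rpl36al and Rps27l. It left out some ribosomal protein genes with other names, such as Rplp0 and Rpsa, which are given apart below.

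Ribosomal proteins bind ribosomal RNA in the nucleolus, and the finished large and small subunits carry out protein synthesis in the cytoplasm. Their mRNAs are among the most abundant in growing cells, and many begin at a run of pyrimidines through which growth signalling by mTOR sets their translation. Because of that control, the amount of a ribosomal protein mRNA does not by itself give the rate at which the protein is made. In neural stem cells, growth factors drive division and ribosome production, and their withdrawal lets the cells become neurons and glia.

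The cells were grown from the walls of the lateral ventricles of mice at postnatal day 14 to 21, and RNA from Dnmt3a-null (KO) and wild-type (WT) cultures was compared on 6 arrays with 2 colours, 1 genotype in each dye. Differentiating cells (2 arrays) had been replated for 2 days with mitogens and then kept for 3 days without them. Proliferating cells (4 arrays) were kept in FGF-2 and EGF, each at 10 ng/ml, and both genotypes were grown in both conditions. The labels call the arrays biological replicates but do not say whether each came from a separate animal, nor which Cre or promoter made the null allele, so p-values measure the spread between these arrays. KO RNA carried Cy5 on differentiating replicate 2 and proliferating replicates 1 and 3, and Cy3 on the other arrays. The differentiating arrays lay on 1 slide and the proliferating arrays on another, so slide and condition cannot be told apart. These are whole cultures, where fewer cells of a type and less RNA per cell cannot be told apart either.

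At its brightest probe, Dnmt3a had log2 ratios of KO over WT of -1.49 and -1.28 in differentiating cells, and of -1.11, -0.98, -0.64 and -1.10 in proliferating cells. It was below 0 on all 6 arrays (limma adjusted p = 0.0155 in differentiating and 0.0219 in proliferating cells); whether that probe lies in the deleted part is not known here. Of 9 neural stem cell markers, 9 were well above background in every KO channel of both conditions and 8 or 9 in every WT channel, and all 6 astrocyte markers were so in every channel. The same held for 9 or 10 of 10 oligodendrocyte lineage markers and for 4 to 7 of 7 neuronal markers, depending on genotype and condition, while 1 of 6 microglial markers was bright enough to be tested. On proliferating replicates 3 and 4 the channels differed in sex-linked genes: Ddx3y, on the Y chromosome, had log2 ratios of KO over WT of 2.41 and 2.94 there, against -0.12 to 0.27 on the other arrays. Between 52.3% and 59.1% of gene spots were well above background in a channel, and the number of arrays limits the precision of every value.

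The starts of the members' genes show the promoter type of the family, and the stretches below are printed for the members on which later results turn (Rpl4, Rpl31, Rpl11, Rps6), with Rpl28, Rpl35, Rps27 and Rpl41 beside them. They are from RefSeq on build GRCm38.p6, which had promoter sequences for 59 of the 78 genes (70 starts). Each runs 5′ to 3′ from 30 bases before the annotated start, and capitals mark CTTTT on the strand shown, likewise CTTTC there, and the motif CCGGAAG on either strand.
Rps6, chr4:86857348-86857397, minus strand: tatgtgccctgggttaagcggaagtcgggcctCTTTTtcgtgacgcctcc
Rpl4, chr9:64173357-64173406, plus strand: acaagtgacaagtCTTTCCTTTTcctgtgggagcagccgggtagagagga
Rpl31, chr1:39367821-39367870, plus strand: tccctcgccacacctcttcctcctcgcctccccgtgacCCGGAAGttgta
Rpl11, chr4:136053374-136053423, minus strand: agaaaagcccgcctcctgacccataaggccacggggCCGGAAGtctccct
Rpl28, chr7:4792935-4792984, plus strand: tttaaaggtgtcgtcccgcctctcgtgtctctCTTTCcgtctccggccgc
Rpl35, chr2:39005112-39005161, minus strand: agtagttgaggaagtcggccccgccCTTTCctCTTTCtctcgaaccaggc
Rps27, chr3:90213629-90213678, minus strand: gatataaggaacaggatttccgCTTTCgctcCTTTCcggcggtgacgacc
Rpl41, chr10:128549149-128549198, minus strand: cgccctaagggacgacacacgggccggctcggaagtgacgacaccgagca

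In Rps6 and Rpl28 a marked pyrimidine run lies just after the annotated start, in Rpl35 and Rps27 there is one on each side of it, and in Rpl4 the runs lie before it. CTTTT or CTTTC on the sense strand lay within 10 bases of the start in 12 of the members' 70 promoters (17.1%; 20.3% of the 59 genes), against 4.38% of all 32851 RefSeq promoters. CCGGAAG, a core that ETS family factors such as GABP recognise, was found on either strand of the 300 bases from 250 before to 50 after the start in 23 of the 70 (32.9%), against 8.86% of all promoters. The ratio of observed to expected CpG, the site that Dnmt3a methylates, had a median of 0.86 over the members' promoters and 0.38 over all promoters, and 85.7% of the members' promoters were over 0.6, against 35.8% of all. TATAAA between 40 and 15 bases before the start was found in 1 of the 70, against 1.99% of all promoters. These matches describe the letters in the window, and no match says nothing of the factor.

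The ribosomal protein genes were among the brightest spots on the arrays. Counted at the chosen probe, the members saturated in red numbered between 19.6% and 22.7% of all red-saturated gene spots on each array. Their other probes were counted only among all spots. Of the 78 genes, 37 were saturated on no array, 26 on some and 15 on all 6 (among them Rpl5, Rpl7a, Rpl8, Rpl27, Rpl37a, Rpl38, Rpl41, Rps12, Rps14, Rps16, Rps18, Rps20, Rps23 and Rps28). Of the 468 pairs of gene and array, 185 were saturated in red and 5 in green. The brightest was Rps23, a protein of the decoding centre, and the dimmest was Rpl3l, a paralog of Rpl3 used in heart and skeletal muscle. Rpl3l was also the only one of the 78 that was not well above background in all 12 channels.

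Among the genes saturated on all 6 arrays, the ratio of KO over WT tended to go with the dye, most strongly for Rps23. The sign did not follow the dye for every such gene. Rps12 had log2 ratios of 0.71 in proliferating replicate 4 and -0.37 to -0.09 on the other proliferating arrays, in either dye. Rps23 had log2 ratios of 0.47 and -0.59 in differentiating replicates 1 and 2, and of -1.30, 0.93, -0.97 and 0.84 in proliferating replicates 1 to 4. It lay above 0 wherever KO RNA was in Cy3 and below 0 wherever it was in Cy5, on all 6 arrays. The fitted dye term (Cy5 over Cy3) was -0.85 for Rps23, -0.73 for Rpl7a, a large subunit protein, and -0.73 for Rpl37a, a zinc finger protein of the large subunit.

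Over the 15 genes saturated on all arrays the dye term ranged from -0.85 to -0.21 with a median of -0.63. Its median was -0.12 over those saturated on some (from -0.68 to 0.24) and -0.02 over those never saturated (from -0.35 to 0.31). It was over 1.5-fold for 11 of the 78 genes, against 0.437% of all genes tested. The smallest adjusted p of any member's dye term was 0.165 by limma, with 23 of 78 (29.5%) at an unadjusted p under 0.05, against 16.8% of all genes. Fitted KO over WT values below come from the fit with a dye term, which the swapped arrays allow, while ratios on single arrays still carry the dye. The fitted medians over the 78 were -0.08 in differentiating and -0.05 in proliferating cells with the term and without it, since each condition holds both dye orientations equally.

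**Figure D1:**
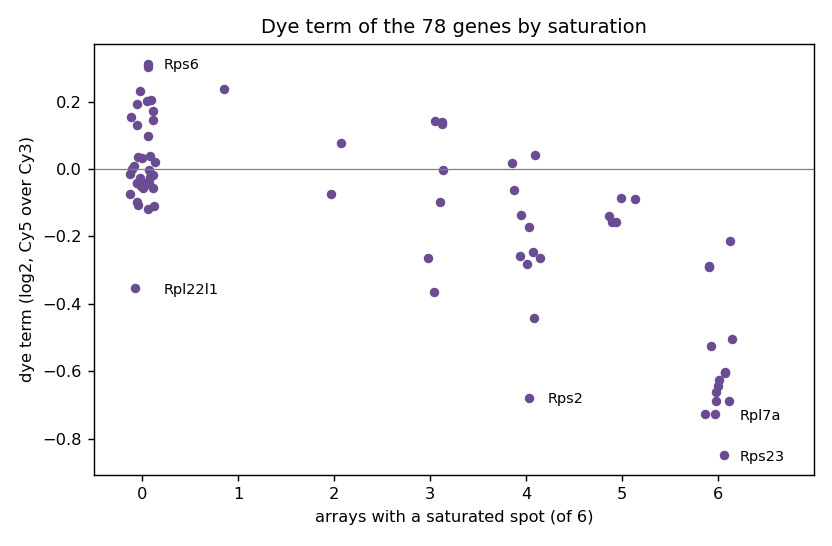
Dye term (log2, Cy5 over Cy3; y axis) of each of the 78 ribosomal protein genes against the number of arrays, of 6, with a saturated spot (x axis, points spread sideways). The 15 genes at 6 arrays lie between -0.85 and -0.21, and those at 0 arrays lie on both sides of 0, with a median of -0.02.

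The level of the 78 genes as a group differed between arrays. Their median log2 ratio of KO over WT was -0.11 and -0.01 in differentiating replicates 1 and 2, and -0.32, -0.05, -0.07 and 0.30 in proliferating replicates 1 to 4. The median over all genes tested lay between -0.04 and 0.02 on the same arrays. In proliferating replicate 1, 59 of 78 genes were below 0, and in replicate 4 only 5 were, while these arrays also carry opposite dyes. Over the 37 genes never saturated, the medians were -0.10 and 0.04 in differentiating cells and -0.02, -0.23, 0.06 and 0.26 in proliferating cells, so replicate 4 was high among them too.

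**Figure D2:**
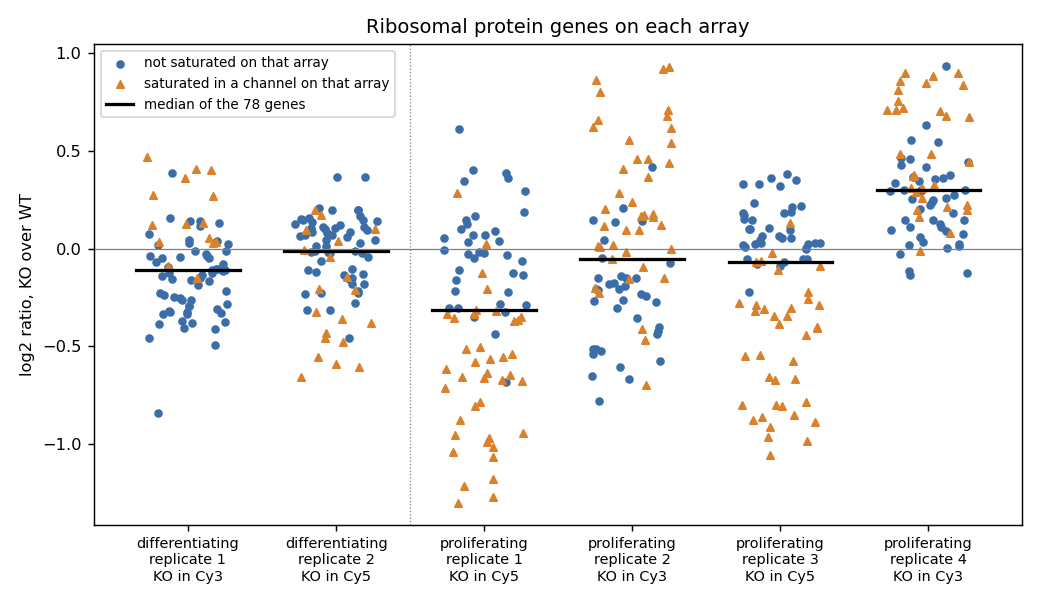
Log2 ratio of KO over WT (y axis) of each of the 78 ribosomal protein genes on each array (x axis, with the dye of the KO RNA), as blue circles where the spot was not saturated and orange triangles where a channel was saturated; black bars are the medians. The bars lie at -0.32 and 0.30 in proliferating replicates 1 and 4 and closer to 0 on the other arrays.

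In differentiating cells no ribosomal protein gene passed between KO and WT cells. Of 78, 0 passed limma's test against 3.10% of all genes tested, and 2 (2.56%) had an unadjusted p under 0.05, against 17.5% of all genes. The median log2 ratio was -0.08, with 60 of 78 below 0, against a median of -0.01 and 51.7% below 0 over all genes. It was 0.16 without differentiating replicate 1 and -0.28 without replicate 2. The values ran from -0.65 for Rpl11 to 0.23 for Rpl22l1. The 95% interval lay within 2-fold for 77 of the 78 and within 1.5-fold for 51, against 87.6% of all genes within 2-fold. These intervals do not cover the clipping of ratios at the 41 genes saturated on at least 1 array.

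Rpl11, which with Rpl5 and the 5S RNA binds the p53 regulator Mdm2, was the largest of these. Its probe (chr4:135428407-135428729, build mm7) had log2 ratios of -0.84 and -0.46 in differentiating cells and of -0.66, -0.70, -0.02 and 0.16 in proliferating cells. Both differentiating arrays were below 0, and the proliferating arrays lay on both sides. The fitted value was -0.65 ± 0.25 (SE, n = 2 arrays, adjusted p = 0.274) in differentiating cells. It passed when the differentiating arrays were fitted alone (adjusted p = 0.0411), as did 1593 of all 18058 genes there. Under no other alternative setting did it pass, and it stayed below 0 in all 20 of them. A second and much dimmer Rpl11 probe had -0.27 in differentiating cells, against 0.23 in proliferating cells, where the brighter probe had -0.31.

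Rps3a, a protein of the small subunit near the mRNA exit, had log2 ratios of -0.33 and -0.32 in differentiating cells and of -0.36, 0.09, -0.09 and 0.06 in proliferating cells. Its differentiating value was -0.32 ± 0.11 (SE, n = 2, adjusted p = 0.231), the smallest p of the 78 there. Its second probe had -0.79 in differentiating cells (unadjusted p = 0.0801 in a limma fit over all probes). Rps19bp1 and Rpl7l1 followed in order of p, with -0.17 (adjusted p = 0.469) and -0.14 (adjusted p = 0.480).

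Other genes did separate the genotypes on those arrays. In differentiating KO cells 6 of 8 markers of dividing cells were higher (median log2 ratio 1.34) and 5 of 7 neuronal markers lower (median -1.38), and 3 of 10 oligodendrocyte lineage markers higher (median 1.53). Of 6 astrocyte markers 1 was higher there (median 1.37). In proliferating KO cells 2 of 10 oligodendrocyte lineage markers were higher (median 1.32), and all 8 dividing-cell markers were above 0, with a median of 0.31, though 0 of 8 passed. The part of these differences in the ribosomal protein values was not tested.

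In proliferating cells no ribosomal protein gene passed either. Of 78, 0 passed limma's test, with 0 at an unadjusted p under 0.05, against 0.952% of all genes tested by adjusted p and 16% by unadjusted p. The median log2 ratio was -0.05, against -0.01 over all genes, and the largest fold was 1.24. This median lay between -0.17 and 0.01 when 1 array was left out, and was 0.03 with 16 of 47 below 0 when saturated spots were left out. In the fit with the replicate number as a block in place of the dye term it was -0.30, with 66 of 78 below 0. That is a value at replicate number 1 and not a mean over the arrays. The interval lay within 2-fold for all 78, against 94.4% of all genes, and within 1.5-fold for 74, with the same limit at saturated genes. Their spread was small: the SD of the 78 values was 0.10, against 0.29 over all genes, while their median SE was 0.12, against 0.09 over all genes.

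The smallest p in proliferating cells belonged to Rpl41, the shortest protein of the ribosome, with -0.20 ± 0.08 (SE, n = 4 arrays, adjusted p = 0.324). Its log2 ratios were -0.71, 0.28, -0.86 and 0.49, with the sign following the dye. Rpl4, a protein that lines the exit tunnel of the large subunit, followed with 0.22 ± 0.10 (adjusted p = 0.344), at 0.39, 0.21, -0.06 and 0.34. Rpl7l1, a paralog of Rpl7, had 0.12 ± 0.06 (adjusted p = 0.391) and was above 0 on all 4 arrays, at 0.10, 0.14, 0.07 and 0.18. Rps19 had -0.23 ± 0.12 (adjusted p = 0.412), and its second probe had 0.28, the widest gap between probes after that of Rpl11.

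**Figure D3:**
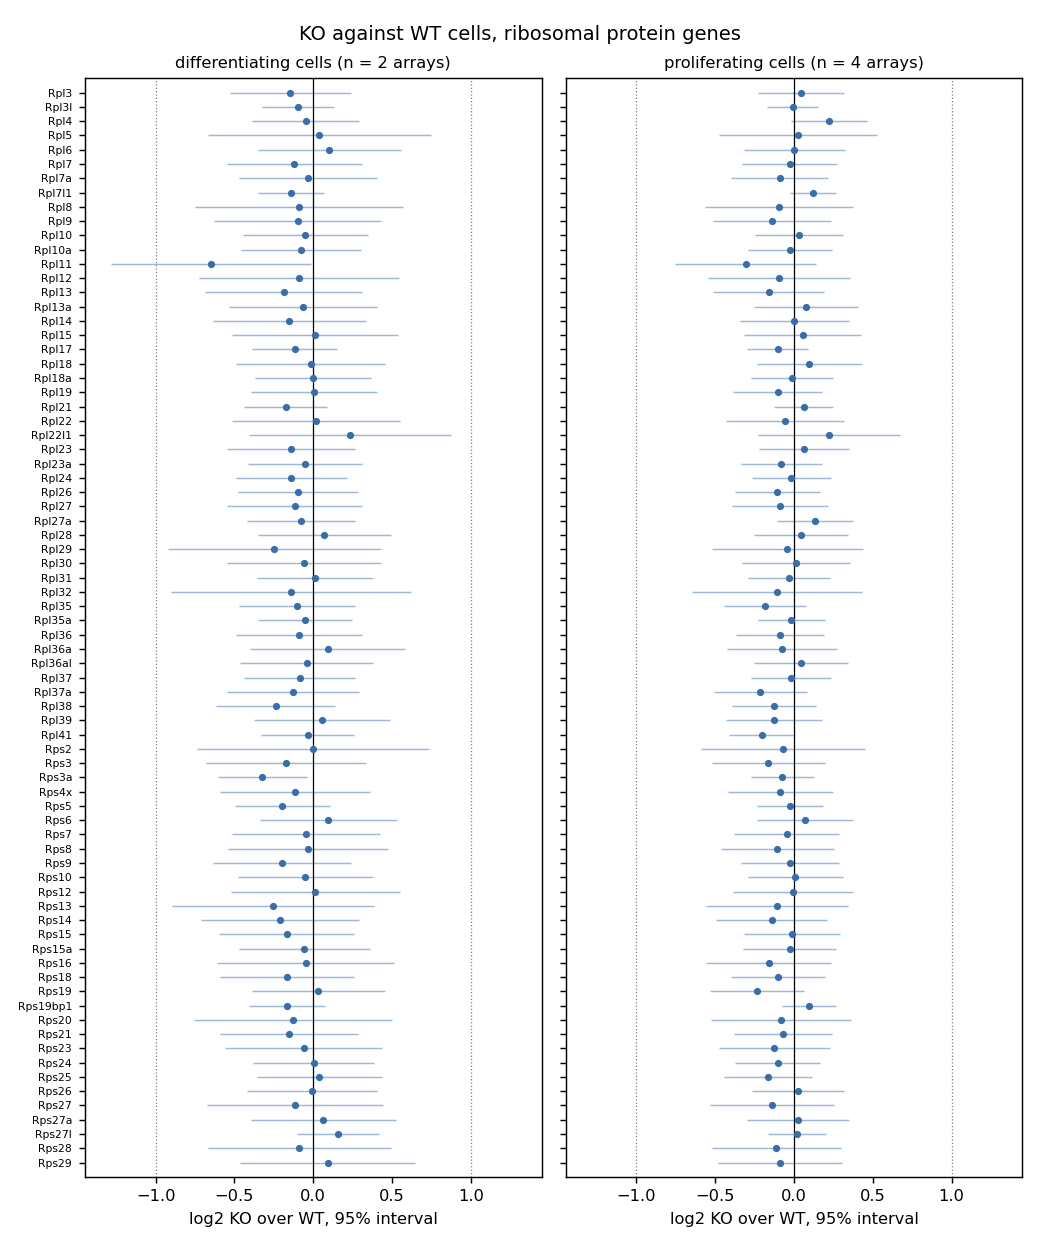
Fitted log2 ratio of KO over WT with its 95% interval (x axis) for most of the 78 ribosomal protein genes (y axis), in differentiating cells on the left and proliferating cells on the right; dotted lines mark 2-fold. In proliferating cells every interval shown lies inside the dotted lines, and in differentiating cells every one but that of Rpl11 does.

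Set against each other (differentiating minus proliferating), the genotype differences of both conditions passed for 0 of 78 genes by limma, against 0.0498% of all genes tested. At an unadjusted p under 0.05 there was 1 (1.28%), against 12% of all genes. That gene was Rpl7l1, with -0.10 and -0.18 on the differentiating arrays and all 4 proliferating arrays above 0. The difference was -0.26 ± 0.10 (SE, adjusted p = 0.407). Its second and dimmer probe differed the other way, with 0.10 in differentiating and 0.05 in proliferating cells. Rps19bp1 (-0.26), Rpl21 (-0.24) and Rps3a (-0.25) were next, with adjusted p from 0.479 to 0.571. The median difference over the 78 was -0.03, but it ran from -0.26 to 0.20 when 1 array was left out. Both ends came from leaving out a differentiating array, where the dye term rested on the proliferating arrays alone. Leaving out 1 proliferating array gave -0.11 to 0.10. With the replicate block it was 0.10, the same value as without proliferating replicates 3 and 4, which do not enter this difference there. Its sign is thus not settled.

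Of the ribosomal proteins whose human genes are mutated in Diamond-Blackfan anaemia, a failure of red cell production, none described here passed between genotypes in either condition. Apart from Rpl11, given above, Rps7, Rps10, Rps19, Rps24, Rps26, Rpl5 and Rpl35a had differentiating values between -0.05 and 0.04, and proliferating values between -0.23 for Rps19 and 0.02 for Rpl5. Rpl5, the partner of Rpl11, had log2 ratios of 0.12 and -0.05 in differentiating cells and of -0.79, 0.92, -0.89 and 0.86 in proliferating cells, and was saturated on all 6 arrays. Rpl23, another protein that binds Mdm2, had -0.14 in differentiating and 0.06 in proliferating cells.

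Rps6, the substrate of the S6 kinases, had log2 ratios of -0.01 and 0.21 in differentiating cells and of 0.61, -0.57, 0.36 and -0.11 in proliferating cells. Here the sign followed the dye the other way on all 6 arrays, and Rps6 had the most positive dye term of the 78 (0.31). Its fitted values were 0.10 in differentiating and 0.07 in proliferating cells. Its other and much dimmer probe had -0.55 in differentiating and -0.17 in proliferating cells.

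Among the paralogs, Rpl22l1, whose product can replace Rpl22, had the highest values of the 78 in differentiating cells (0.23 ± 0.26, SE) and 0.22 ± 0.18 in proliferating cells, at 0.39 and 0.08 and at -0.68, 0.42, 0.21 and 0.94. Its proliferating arrays lay on both sides of 0, and its interval ran from -0.40 to 0.87 in differentiating cells. Rps27l, a p53-inducible relative of Rps27, had 0.15 and 0.02, Rpl36al had -0.04 and 0.05, and Rpl3l had -0.10 and -0.01, in differentiating and proliferating cells.

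The X-linked members are given here for the arrays whose channels differed in sex-linked genes, and whether their values follow sex was not tested. Rps4x, whose human counterpart escapes X inactivation, had log2 ratios of -0.32 and 0.31 on proliferating replicates 3 and 4, against -0.34 and -0.003 on replicates 1 and 2. Rpl10 had 0.10 and 0.42 there (at a probe with no listed position), Rpl36a 0.02 and 0.36, and Rpl39 -0.07 and 0.22. Replicate 4 was above 0 for all 4, as it was for most of the 78, and their fitted values lay between -0.12 and 0.09 in differentiating cells and between -0.12 and 0.03 in proliferating cells. Without both arrays, 0 of the 78 passed between genotypes in either condition. Of all 18058 genes, 1008 passed in differentiating and 219 in proliferating cells in that fit. With all arrays 0 of the 78 had passed as well, so this count says nothing of sex.

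Across growth factor withdrawal, most ribosomal protein genes again stayed short of the threshold, and 3 passed in at least 1 genotype. In KO cells 2 of 78 passed limma's separate-channel test, both lower in differentiating than in proliferating cells, against 14.5% of all genes tested (6.78% lower and 7.72% higher). In WT cells 3 of 78 passed, 2 lower and 1 higher, against 14.1% of all genes (6.62% lower and 7.45% higher). At an unadjusted p under 0.05 there were 6 in KO cells (7.69%) and 4 in WT cells (5.13%), against 32.7% and 31.1% of all genes. The median change over the 78 was -0.08 in KO and -0.05 in WT cells, and 4 of 78 in KO and 6 in WT cells differed by over 1.5-fold, against 29.8% and 28.4% of all genes. With saturated spots left out, the median over the 37 remaining genes was -0.24 in KO and -0.17 in WT cells. The counts above do not cover the clipping of signals at the 41 genes saturated on at least 1 array. At the brightest probe never saturated, chosen after seeing the data, 4 of 57 genes passed in KO and 6 in WT cells (medians -0.24 and -0.14). Of all 18021 genes, 2624 and 2542 passed in that fit. When 1 array was left out, the median over the 78 ran from -0.26 to 0.12 in KO and from -0.20 to 0.15 in WT cells, on both sides of 0. Those ends had a dye term from the proliferating arrays alone.

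Rpl4 was lower after withdrawal in both genotypes. In KO cells its log2 signal was 12.73 and 11.50 in differentiating cells, against 13.78, 13.68, 13.99 and 13.64 in proliferating cells. In WT cells it was 12.59 and 11.74 in differentiating cells, against 13.39, 13.47, 14.04 and 13.30 in proliferating cells. The groups did not overlap in either genotype. The change was -1.66 ± 0.31 (SE, adjusted p = 0.0104; 3.16-fold lower) in KO and -1.39 ± 0.31 (adjusted p = 0.0189; 2.62-fold lower) in WT cells, at its only probe (chr9:64203185-64203244, mm7).

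Rpl31, a large subunit protein at the rim of the exit tunnel, was also lower in both. Its log2 signal in KO cells was 10.63 and 10.48 in differentiating cells, against 11.67, 11.41, 11.28 and 11.32 in proliferating cells. In WT cells it was 10.66 and 10.42 in differentiating cells, against 11.69, 11.61, 11.50 and 11.02 in proliferating cells. No differentiating value reached a proliferating one. The change was -0.87 ± 0.23 (SE, adjusted p = 0.0344) in KO and -0.91 ± 0.23 (adjusted p = 0.0298) in WT cells, and its second probe had -0.71 and -0.55.

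Rpl21, another large subunit protein, was the single gene that passed upward, and its probes went opposite ways. At the chosen probe (chr5:145727505-145727564, mm7) the log2 signal in WT cells was 12.10 and 11.06 in differentiating cells, against 10.90, 10.20, 10.53 and 10.34 in proliferating cells. In KO cells it was 11.86 and 10.95 in differentiating cells, against 10.79, 10.34, 10.63 and 10.45 in proliferating cells. The groups did not overlap, and the change was 1.09 ± 0.28 (SE, adjusted p = 0.0316) in WT cells and 0.85 ± 0.28 (adjusted p = 0.0679) in KO cells. The second probe, whose accession RefSeq lists as Rpl21, had -0.69 in WT and -0.68 in KO cells (unadjusted p = 0.0101 and 0.0109 in a fit over all probes), while the accession of the chosen probe had no match there. The direction for Rpl21 is thus not settled by these probes.

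These calls rested on few arrays. Leaving out a differentiating array leaves 1, so no count is given for it. Without proliferating replicate 1, 0 members passed in both genotypes, with 418 of all genes in KO and 634 in WT cells. Without replicate 2 it was 0 in both (597 and 679 of all genes). Without replicate 3 it was 1 in KO and 0 in WT cells (874 and 990), and without replicate 4 it was 4 in each (4660 and 3742). With all arrays, 2616 and 2538 of all genes passed, so calls over all genes fell and rose as well. That the groups of Rpl4, Rpl31 and Rpl21 did not overlap adds no support, since these genes were picked by p from the same values. Rpl4 kept its sign under all 20 alternative settings, with values from -2.24 to -1.08 in KO and from -1.94 to -0.94 in WT cells. Sex-linked genes differed across withdrawal too, though 0 of 5 passed. Their log2 changes ran from -2.59 to 0.45 in KO and from -3.60 to 2.89 in WT cells. The part of this in the ribosomal protein values was not tested.

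**Figure D4:**
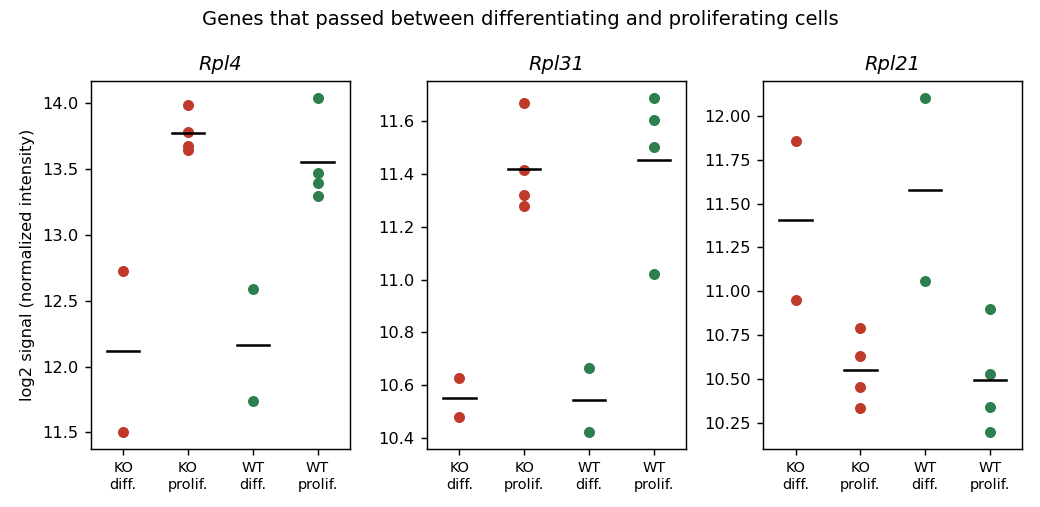
Normalized log2 signal (y axis, a scale of its own in each panel) of Rpl4, Rpl31 and Rpl21 at the chosen probe, for KO (red) and WT (green) RNA in differentiating (diff.) and proliferating (prolif.) cells; points are arrays and bars are means. Differentiating cells lie below proliferating cells for Rpl4 and Rpl31 and above them for Rpl21, with no overlap.

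Further members that came next by p were Rps19 in WT cells (-0.68, adjusted p = 0.0963) and Rps3a (-0.44, adjusted p = 0.109), Rpl14 (-0.81, adjusted p = 0.110) and Rpl3 (-0.55, adjusted p = 0.119) in KO cells. None of them passed. The dividing-cell markers fell far more: 6 of 8 passed in KO cells (median -2.66) and 7 of 8 in WT cells (median -3.79), and 1 of 7 neuronal markers rose in KO cells (median 0.55) and 6 of 7 in WT cells (median 1.44).

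Genes that make or use ribosomes gave a background for these values, from lists compiled by name. The 7 tested ribosomal proteins with other names (among them Rplp0, Rplp1, Rplp2, Rpsa, Fau and Rack1) had 0 calls between KO and WT cells in either condition. Rpsa, the laminin receptor that is also a small subunit protein, was lower after withdrawal by the same test, at -1.05 in KO (adjusted p = 0.0209) and -1.003 in WT cells (adjusted p = 0.0255). Of 78 mitochondrial ribosomal protein genes, which serve the separate ribosome of the mitochondrion, 0 passed between genotypes, with medians of 0.07 in differentiating and 0.03 in proliferating cells. Across withdrawal 4 rose and 3 fell in KO cells, and 3 rose and 8 fell in WT cells, against 14.5% and 14.1% of all genes called in either direction, with Mrps14 higher by 1.36 in KO and 1.11 in WT cells on the log2 scale.

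Of 52 ribosome assembly factors, 0 passed between KO and WT cells in either condition. In proliferating cells 45 of 52 were above 0, with a median of 0.24, and the ratio was 0.47 for Grwd1, a histone-binding assembly factor (adjusted p = 0.160). In differentiating cells the median was -0.04. By array, the list median was 0.04 and -0.11 in differentiating cells and -0.09, 0.45, 0.30 and 0.14 in proliferating cells, so replicate 1 stood below the other proliferating arrays. Across withdrawal 1 of the 52 passed in KO and 0 in WT cells, against 14.5% and 14.1% of all genes called in either direction. That factor was Nob1, the nuclease that finishes 18S RNA, at -1.09 (adjusted p = 0.0241).

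Of 47 translation factors, 0 passed between genotypes, and across withdrawal 8 fell in KO cells and 5 in WT cells, against 6.78% and 6.62% of all genes called lower. Among them Eif3l, a subunit of initiation factor eIF3, was at -0.58 in both genotypes (adjusted p = 0.0222 in KO and 0.0233 in WT). Eef2, the elongation factor that moves the ribosome along the mRNA, fell by 0.94 on the log2 scale in KO cells (adjusted p = 0.0293). Of 23 genes of growth signalling to ribosomes, such as Myc and the mTOR partner Rptor, 0 passed between genotypes. Across withdrawal 1 was lower in KO cells, Rptor (-0.91, adjusted p = 0.0494), against 6.78% of all genes. In WT cells 1 was higher, p53 (Trp53, 1.04, adjusted p = 0.0207), against 7.45% of all genes. The 23 ran from -0.91 to 0.79 in KO and from -0.87 to 1.04 in WT cells. A pass in 1 genotype alone is thus not a difference between genotypes.

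**Figure D5:**
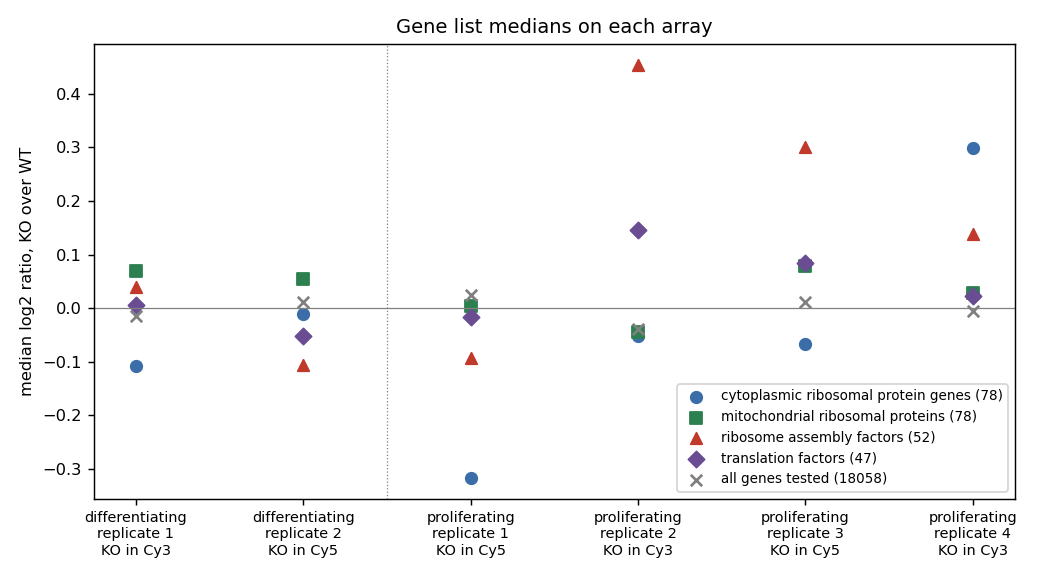
Median log2 ratio of KO over WT (y axis) on each array (x axis, with the dye of the KO RNA) of 78 cytoplasmic and 78 mitochondrial ribosomal protein genes, 52 ribosome assembly factors, 47 translation factors and all 18058 genes tested. The assembly factors reach 0.45 in proliferating replicate 2, and the cytoplasmic ribosomal protein genes run from -0.32 to 0.30 over the proliferating arrays.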

How the data were processed

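Spot intensity values, as mean signal and local background per dye, were deposited by the authors from Agilent Feature Extraction 9.5.1.1, per the file headers, with probe positions on build mm7. The authors' value table, deposited as log10 ratios, equals the scanner's ratio turned to KO over WT (differences up to 5e-06) and served as an alternative. Well-above-background and saturation marks are the scanner's, per the file headers. Signals were corrected with limma 3.58.1 in R 4.3.3 (normexp, offset 50) and loess within arrays. Saturated spots were kept, while controls (1639 spots an array) and 859 gene spots marked as outliers were left out. Genes needed a probe well above background on at least 2 of 6 arrays.

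The 6 arrays shared 1 limma fit (lmFit, then eBayes) of log2 ratios, each condition having its own coefficient beside a term for dye (3 residual and 2.56 prior degrees of freedom). Withdrawal within a genotype came from the separate-channel fit after Aquantile (intraspot correlation 0.764, 18045 genes). Adjusted p-values are Benjamini-Hochberg over all genes tested, 2-sided, with a threshold of 0.05. The fits were tested on simulated data. Per comparison the text names the genes that passed, or the 4 of smallest p where none did, and further takes paralogs, anaemia and X-linked genes, Mdm2 binders, Rps6, the brightest and dimmest, saturated, most dye-biased and most probe-discordant genes, and list members of small p. Some genes are not reported here by name. The members, lists and rules were chosen with earlier results of these data known.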

Additional observations from a re-analysis of the deposited data

Results flagged for a closer look

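Rpl21 stood apart on 1 array among the proliferating cells: its log2 ratio of KO over WT was -0.11 in replicate 1, against 0.11 to 0.14 in the other 3 replicates, a larger gap than Dixon's test allows for a group of 4. The same test marked 6 of 79 sets of ratios (the 78 genes and their median), 2 of 78 sets of KO signals and 4 of 78 sets of WT signals in proliferating cells. Chance gives about 1 in 20.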

How the results depend on the processing

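With 2 and 4 arrays per condition the precision is limited, and saturated signals of the brightest genes carry only a lower limit. Between genotypes the count of changed genes was 0 under all alternatives that kept both differentiating arrays, except 1 (Rpl11) when those arrays were fitted alone. In that fit 1593 of all 18058 genes passed. With the replicate block in place of the dye term the median was -0.16 in differentiating and -0.30 in proliferating cells. These are values at replicate number 1 and not means over the arrays. Leaving out 1 array gave medians of -0.28 to 0.16 in differentiating cells, both ends with a dye term from the proliferating arrays alone. Across withdrawal, without normalization between arrays, medians were -0.39 in KO and -0.36 in WT cells, with 19 and 16 genes changed. Of all 18045 genes, 4944 and 4695 passed there, and the median of all genes moved to -0.29 in both. The withdrawal counts in KO and WT cells were 4 and 6 (of 57) at the brightest probe never saturated, an alternative chosen after seeing the data (2624 and 2542 of all genes). They were 1 and 1 with the replicate block (1191 and 937 of all genes). Without proliferating replicates 3 and 4 together they were 1 and 1 (1219 and 976 of all genes). The median over all probes gave 5 in KO and 4 in WT cells: Rpl21 was no longer called, while Rpl7a and Rps4x in both genotypes and Rpl13 in KO cells, whose brightest probes were saturated on some or all arrays, were added. Leaving out 1 proliferating array gave 0 to 4 in KO and 0 to 4 in WT cells. Leaving out any 1 array put the WT median between -0.20 and 0.15. CTTTT or CTTTC lay within 20 bases of the start in 28.6% of the members' promoters (33.9% of their genes), against 9.42% of all promoters. Whether same-numbered arrays of different condition are paired is not known here. Their deviations correlated at -0.37 and -0.29, with opposite dyes. With 2 differentiating arrays the crossed pairs mirror this at 0.37 and 0.29, so the correlations cannot decide it. The block fit took the intraspot correlation of the fit without it. Array weights and the deposited table do not apply to withdrawal, and a slide block was not possible. No gene that passed changed sign under these alternatives, though none of them used the second Rpl21 probe by itself, which had -0.69 in WT cells. The medians over the 78, all below 0, were however above 0 under some. Without differentiating replicate 1 they were 0.16 between genotypes in differentiating cells, 0.20 for the difference between conditions and 0.12 for withdrawal in KO cells, and without differentiating replicate 2 the median was 0.15 for withdrawal in WT cells. In these fits the dye term came from the proliferating arrays alone. The difference between conditions was 0.10 with the replicate block and without proliferating replicates 3 and 4, 2 settings that give the same value from the same arrays. It was also 0.10 without replicate 4 alone. In proliferating cells the genotype median was 0.03 with saturated spots left out, and it was above 0 by no more than 0.01 (rounded) without proliferating replicate 1 or 2 and at probes never saturated, as was withdrawal in WT cells without proliferating replicate 1.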
